A study of Mus musculus with 8 samples.

Results

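The promoters of Gpa33, Gm11116 and Gm15889 made up 3 of the 9224 promoters, and 35 of the 203645 cytosines, in a table of DNA methylation in mouse germline stem (GS) cells. Gpa33 had 5 of these cytosines, Gm11116 had 23 and Gm15889 had 7. The genes were chosen because cytosines in their promoters had lower methylation in ICSI-F1 than in control-F1 lines in these same values, so each difference between these groups is given as a description, with no test. The study followed offspring made by intracytoplasmic sperm injection (ICSI), and turned to GS cells to look at their germline directly. GS cells were derived from spermatogonia of control-F1 mice, born after natural mating (lines 29, 37, 44 and 45), and of ICSI-F1 mice, born after injection of sperm into the oocyte (lines 11, 17, 20 and 21). All 8 lines carry the B6 label and the genotype WT, were cultured in the same medium, and gave 1 reduced representation bisulfite sequencing (RRBS) library each. Each line came from CD9-selected testis cells and had been grown in culture, so a value describes a cultured line and not the testis. The methods mention removal of embryonic fibroblasts from such cultures before RNA collection and say nothing of it for DNA, and the table holds no expression values, so the cell type was not checked against its markers.

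In mammalian DNA, methyl groups sit mostly on the cytosines of CpG dinucleotides. CpG-rich promoters are usually free of methylation in most cell types, whereas isolated CpGs outside islands often carry intermediate or high levels that vary between cell populations. Cultured spermatogonial stem cells carry a paternal pattern of imprints, and promoters of genes of other tissues can be methylated in them. Gpa33 encodes glycoprotein A33, an immunoglobulin-like surface antigen of the intestinal epithelium. Gm11116 is a predicted gene annotated as protein-coding, and Gm15889 is annotated as a long intergenic noncoding RNA, and no function is assigned to either here.

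In RRBS, the enzyme MspI cuts at CCGG and the ends of the fragments are read after bisulfite treatment, which converts unmethylated cytosines. The methylation level of a cytosine is the percentage of its reads that remained cytosine, and the cytosines of one CpG on the plus and the minus strand are separate sites in the table. All coordinates are those of mm10. The stretches that carry the lowered cytosines are shown first, because their layout sets which cytosines are read together. They were read from the RefSeq genome GRCm38.p6 on the plus strand, with the CpGs measured in all 8 lines in capitals. The Gpa33 stretch spans chr1:166129850-166130139, the Gm11116 stretch chr5:88112110-88112277 and the Gm15889 stretch chr8:94377705-94377838.
Gpa33: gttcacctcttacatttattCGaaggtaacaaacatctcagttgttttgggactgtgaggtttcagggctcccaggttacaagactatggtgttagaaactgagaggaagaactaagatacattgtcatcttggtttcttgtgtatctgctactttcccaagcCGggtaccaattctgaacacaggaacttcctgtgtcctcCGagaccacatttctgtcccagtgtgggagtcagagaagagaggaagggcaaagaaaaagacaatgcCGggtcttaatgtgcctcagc
Gm11116: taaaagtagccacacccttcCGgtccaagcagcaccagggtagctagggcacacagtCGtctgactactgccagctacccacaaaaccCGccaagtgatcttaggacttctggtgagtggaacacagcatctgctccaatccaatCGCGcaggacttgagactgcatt
Gm15889: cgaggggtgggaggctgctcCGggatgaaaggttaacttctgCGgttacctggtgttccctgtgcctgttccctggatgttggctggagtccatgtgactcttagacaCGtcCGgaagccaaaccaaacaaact
All 4 CpGs of the Gpa33 stretch and all 5 of the Gm11116 stretch were measured, and 4 of the 5 in the Gm15889 stretch. The MspI letters CCGG, which read the same on both strands, stand 2 times in the Gpa33 stretch, 1 time in that of Gm11116 and 2 times in that of Gm15889. They occur in 99.5% of all the 1000-bp promoter windows of the table, so their presence describes the assay.

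Gpa33 (ENSMUSG00000000544) lies on the plus strand of chromosome 1 and starts at 166130238, and its 5 cytosines lay 119 to 368 bp upstream of that start, outside islands, shores and shelves. Gm11116 (ENSMUSG00000079439) lies on the minus strand of chromosome 5 with its start at 88111530, and its 23 cytosines lay 600 to 964 bp upstream. Gm15889 (ENSMUSG00000089712) starts at 94377872 on the plus strand of chromosome 8, and its 7 cytosines lay 54 to 147 bp upstream, in the shore of an island. None of the 35 cytosines was inside a gene of the GENCODE M21 annotation. All 3 promoters were poor in CpG. The 1000 bp upstream of the start held 9 CpGs for Gpa33, 16 for Gm11116 and 11 for Gm15889, against a median of 31 over all promoters. Sequence masked as repeat in the reference filled 75.2% of the Gm11116 window, and 99.4% of the promoters had as little or less. The corresponding values were 16% for Gpa33 and 35.5% for Gm15889, with a median of 13.5% over all promoters. How well reads can be placed in the Gm11116 window was not tested.

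The authors had scaled the reads of the lines to one another. With the scaling undone, the median site of a line had 41 to 82 reads and the sum over all sites was 9121937 to 16781748 reads. The cytosines of the 3 promoters had 10 to 214 reads per line, with a median of 51. At that depth the 95% Wilson interval of one cytosine in one line was 5.21 to 51.9 percentage points wide, with a median of 21.9. Wilson intervals cover counting error only, and they treat every read as independent. The methods describe paired reads and mention no molecular identifiers, so a molecule may have been counted more than once. Whether it was so was not tested, and the intervals can be too narrow. Lines 29, 37, 11 and 17 name the origin of the mice in their source label and lines 44, 45, 20 and 21 give only the cell type there; these are called label set 1 and label set 2 below, and each holds 2 lines of each group. Over all sites the mean level was 6.14% to 6.88% in the lines of set 1 and 8.24% to 9.26% in those of set 2.

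A cytosine was counted as lowered when the ICSI-F1 mean was more than 20 percentage points below the control-F1 mean and every ICSI-F1 line lay below the control-F1 mean. This is one reading of the study's methods, which drop sites with a reversed change in any sample without saying against what. On the stricter reading that no line of the groups may overlap, 5 of the 35 cytosines were lowered, 3 in Gm11116, 2 in Gm15889 and 0 in Gpa33, and 18 sites of the table (0.00884%). By the first reading, used below, 10 of the 35 cytosines were lowered, 2 in Gpa33, 5 in Gm11116 and 3 in Gm15889. Over the table it held for 103 sites (0.0506%), and for 51 promoters with at least 1 such site (0.553%). Nothing can be read from the share of these cytosines against this background, because the genes were picked on it. None of the 35 cytosines was raised by the mirrored rule, which 557 sites of the table met, in 313 promoters (3.39%). A difference below zero was seen at 32 of the 35 cytosines, and 3 had a difference above zero. Over all sites, 108363 of 203645 (53.2%) had a difference below zero. Among cytosines with a control-F1 mean of 20% to 80%, it was below zero at 28 of the 30 in these promoters. Elsewhere it was so at 44.7% of such cytosines, which were matched on level only and not on place in CCGG or in islands. The genes were picked for lower levels, so this count too is a description. Every ICSI-F1 line lay below every control-F1 line at 6 of the 35 cytosines, 3 in Gm11116, 3 in Gm15889 and 0 in Gpa33, which was the case at 1382 sites of the table (0.679%). The number lowered was 6 without control-F1 line 37 (2 in Gpa33, 3 in Gm11116 and 1 in Gm15889), and the number without overlap was 11 without ICSI-F1 line 20. Leaving out a line can only keep or raise the number without overlap. Its share over all sites with a line left out is not given here, so nothing is read from this rise. Just inside the rule was the Gm15889 cytosine at 94377748, with a difference of −20.4 points, and just outside was its plus-strand partner at 94377747, with −19.6 points. The Gpa33 cytosines at 166129870 and 166129871 differed by −20.3 and −33.3 points, and were not counted because a line of the ICSI-F1 group exceeded the control-F1 mean at each.

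**Figure D1:**
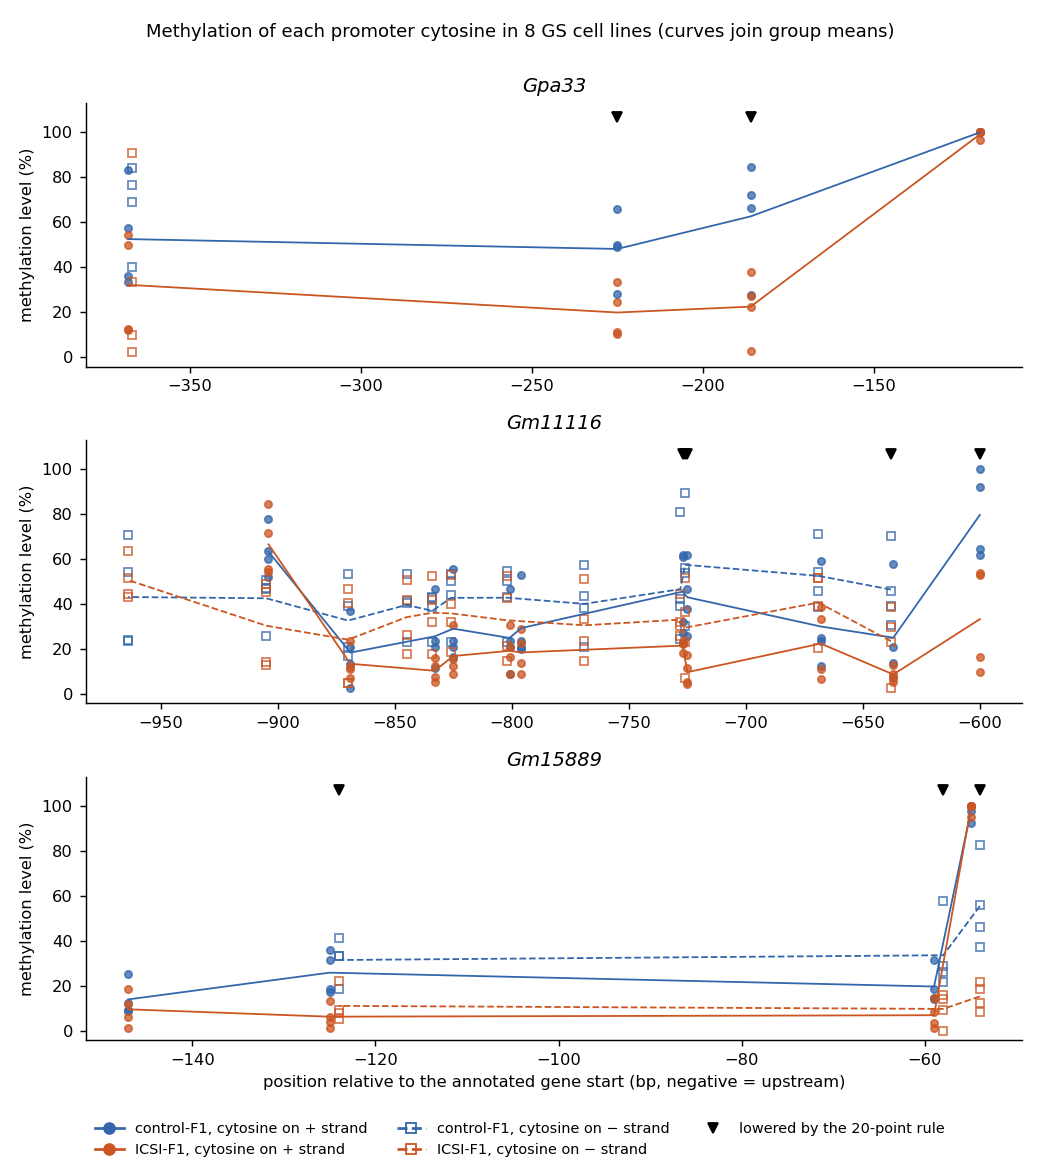
Methylation level (%, vertical axis) of each promoter cytosine in each of the 8 lines against its position relative to the gene start (bp, horizontal axis, negative is upstream). Blue marks control-F1 and orange ICSI-F1 lines, filled circles with solid curves are plus-strand and open squares with dashed curves minus-strand cytosines, curves join group means, and triangles mark the 10 lowered cytosines. The lowered cytosines of Gm11116 lie at 600 to 727 bp, and the cytosines at 119 bp in Gpa33 and 55 bp in Gm15889 are close to 100% in both groups.

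Averaged over its 5 cytosines, the Gpa33 promoter was at 73.2%, 80.3%, 52.3% and 59.1% in control-F1 lines 29, 37, 44 and 45, and at 33.4%, 39.5%, 62.4% and 31.2% in ICSI-F1 lines 11, 17, 20 and 21. The group values were 66.2% ± 12.8 (SD, n = 4) and 41.6% ± 14.3 (SD, n = 4), a difference of −24.6 percentage points. The groups overlapped, since ICSI-F1 line 20 was above control-F1 lines 44 and 45. Within label set 1 the difference was −40.3 points and within label set 2 it was −8.87 points, so the size of the Gpa33 difference depended on which lines were compared.

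The Gm11116 promoter mean over 23 cytosines was 37.4%, 40.3%, 54.8% and 31.0% in the control-F1 lines and 30.8%, 22.6%, 34.6% and 24.2% in the ICSI-F1 lines, in the same order. This gave 40.9% ± 10.0 and 28.1% ± 5.63 (SD, n = 4 each) and a difference of −12.8 points. Control-F1 line 45 was below ICSI-F1 line 20, so the groups overlapped here too. The difference was similar in both label sets, with −12.2 points in set 1 and −13.5 points in set 2, but it was −8.21 points without control-F1 line 44, which had the highest level of its group at 18 of the 23 cytosines.

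Gm15889 was the promoter of the 3 in which the line means did not overlap. The share of all promoters without such overlap is not given here, nor is that for the fragment and strand means below. Lack of overlap in these means is therefore a description of genes picked on this contrast. They were 31.7%, 46.0%, 36.0% and 45.6% in the control-F1 lines and 17%, 23.3%, 27.0% and 23.6% in the ICSI-F1 lines. The group values of 39.8% ± 7.15 and 22.7% ± 4.16 (SD, n = 4 each) differed by −17.1 points, with −18.7 points in label set 1 and −15.5 points in set 2. In the ICSI-F1 group, line 11 had the lowest level at 6 of the 7 cytosines.

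**Figure D2:**
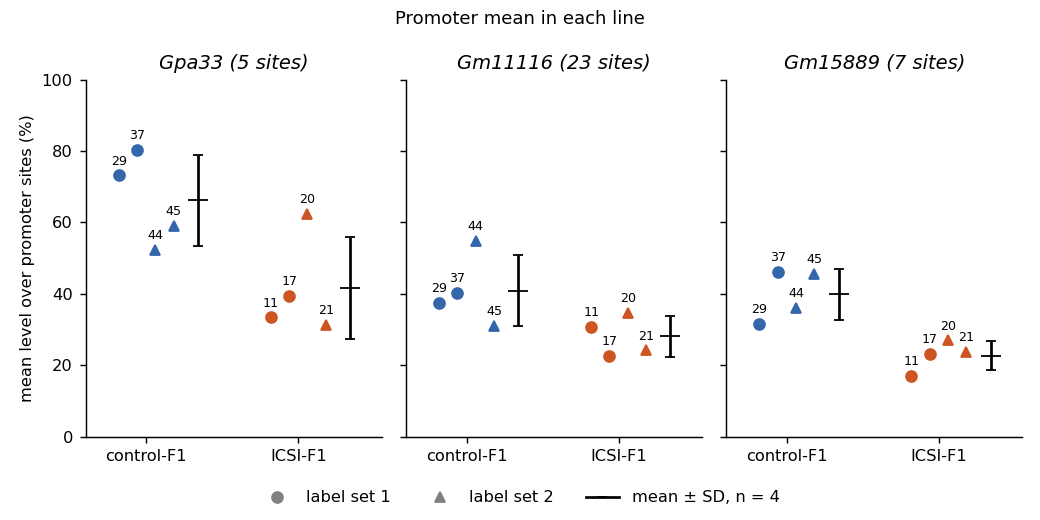
Mean methylation level (%, vertical axis) over the promoter cytosines of each gene in every line, by group, with line numbers beside the points, circles for label set 1 and triangles for label set 2, and black marks for the mean ± SD of 4 lines. For Gm15889 the ICSI-F1 lines reach 27.0% at most and the control-F1 lines start at 31.7%, whereas in Gpa33 line 20 stands at 62.4% among the control-F1 values.

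The cytosines of these promoters varied more between lines of one group than promoter cytosines did in general. The median SD within a group was 14.0 points over the 35 cytosines and 3.09 points over all sites. The gap was smaller at like levels. Among cytosines with a control-F1 mean of 20% to 80%, the median SD was 14.4 points for the 30 of these promoters and 9.50 points for the other 15118. The 15118 were matched on level only, and not on place in CCGG or in islands. In the table, 25734 CCGG cytosines between 2 fragments under 300 bp had a median level of 21.7%, and 18920 of them lay in islands. Of the 35 cytosines, 10 lay in CCGG and none in an island.

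In Gpa33, the cytosine with the largest difference lay 186 bp upstream of the start, at 166130052. Its level was 66.2%, 84.7%, 27.6% and 72.3% in the control-F1 lines 29, 37, 44 and 45, and 3.08%, 27.3%, 37.8% and 22.2% in the ICSI-F1 lines 11, 17, 20 and 21. Line 44 stood apart from the other control-F1 lines and below line 20, with a Wilson interval of 20.5% to 36.6% from 115 reads, and line 11 was lowest with 1.18% to 9.65% from 87 reads. The means were 62.7% ± 24.6 and 22.6% ± 14.5 (SD, n = 4 each), a difference of −40.1 points.
The neighbouring cytosine at 166130013, in the CCGG at the end of the same 106-bp MspI fragment, was also lowered, with 65.8%, 49.0%, 28.1% and 50% in the control-F1 lines and 10.4%, 24.7%, 33.3% and 11.4% in the ICSI-F1 lines. Here too line 44 was the lowest control-F1 line and line 20 the highest ICSI-F1 line, and the difference of −28.2 points was made up of −39.8 points in set 1 and −16.7 points in set 2.
At the most distant CpG, the plus-strand cytosine (166129870) had 57.4%, 83.3%, 36.4% and 33.3% in the control-F1 lines and 54.5%, 12.1%, 50% and 12.5% in those of the ICSI-F1 group. Its minus-strand partner (166129871) had 76.5%, 84.4%, 69.2% and 40%, against 2.50%, 33.3%, 90.9% and 10.0%. The ICSI-F1 lines thus split at this CpG, and line 11 was high on the plus strand and low on the minus strand, with 10 to 51 reads behind each level on the minus strand. The cytosine nearest to the start, at 166130119, was at 100% in all lines except ICSI-F1 line 11, which had 96.4%.

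Of the 23 Gm11116 cytosines, the 5 lowered ones all lay on a single 168-bp MspI fragment, the one nearest to the gene. That fragment held 10 measured cytosines, whose mean was 42.4%, 57.1%, 56.3% and 31.2% in the control-F1 lines and 22.8%, 28.7%, 29.8% and 20.5% in the ICSI-F1 lines. The lines did not overlap on this fragment, and the means of 46.8% ± 12.4 and 25.4% ± 4.52 (SD, n = 4 each) differed by −21.3 points. On the next fragment of 108 bp, with 11 cytosines, the levels were 33.3% ± 11.9 and 24.9% ± 11.3 and overlapped widely, with a difference of −8.44 points. The 2 cytosines of the farthest fragment, of 234 bp, were higher in ICSI-F1 lines by 5.39 points, at 53.3% ± 16.0 and 58.7% ± 11.8. The difference was therefore not spread evenly over the Gm11116 window. Cytosines of one fragment and strand can be read in the same molecules and are not independent of one another.

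The largest difference of the 35 was at the Gm11116 cytosine 88112130, in the CCGG that ends the 168-bp fragment. Control-F1 lines 29, 37, 44 and 45 had 64.7%, 92.3%, 100% and 61.9%, and ICSI-F1 lines 11, 17, 20 and 21 had 10.0%, 54.1%, 16.7% and 52.9%. The groups did not overlap, and the ICSI-F1 lines formed a low pair (11 and 20) and a middle pair (17 and 21), each with 1 line of each label set. Coverage was low here, 12 to 28 reads per line, so that the Wilson interval of line 29 ran from 39.1% to 86.2% and that of line 17 from 35.8% to 70.5%. The difference was −46.3 points, with −46.5 in set 1 and −46.1 in set 2.
At 725 to 727 bp from the start, adjoining CpGs gave 3 more lowered cytosines. At 88112255 on the plus strand the levels were 25.8%, 46.9%, 61.8% and 38.1% in control-F1 and 11.8%, 17.3%, 4.76% and 5.56% in ICSI-F1 lines, without overlap and with a difference of −33.3 points. At 88112257, also on the plus strand, control-F1 lines had 32.4%, 61.2%, 61.8% and 27.3% and ICSI-F1 lines 23.2%, 22.7%, 18.6% and 22.2%, again without overlap. The SD of the 4 ICSI-F1 lines was 2.08 points there.
The minus-strand cytosine between them, 88112256, was lowered by the rule, but the groups overlapped: 56.2%, 89.5%, 54.0% and 30.6% in control-F1 and 36.6%, 23.1%, 51.6% and 7.25% in ICSI-F1 lines. The last lowered cytosine, 88112168, also on the minus strand, had 46.0%, 70.2%, 39.1% and 31.0% against 23.1%, 29.8%, 38.7% and 2.99%, with overlap through lines 45 and 20. Its difference of −22.9 points was −31.7 points in set 1 and −14.2 points in set 2.

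The other 18 cytosines of Gm11116 were not lowered by the rule. On the 168-bp fragment, 88112167 was at 7.69% to 57.9% in the control-F1 and 5.71% to 13.2% in the ICSI-F1 lines, with line 44 far above the others. At 88112198 the ranges were 12.8% to 59.4% and 6.98% to 38.9%, at 88112199 they were 38.9% to 71.4% and 20.6% to 51.6%. At 88112258 they were 24.6% to 80.8% and 25.8% to 44.4%, and at 88112299 they were 21.1% to 57.6% and 14.9% to 51.1%. These 5 overlapped between the groups and had differences of −16.3, −7.59, −11.9, −13.5 and −9.50 points.
The plus strand of the 108-bp fragment held 5 cytosines, 88112326, 88112331, 88112355, 88112363 and 88112399. In control-F1 line 37 all had a level of 21.1%, from 2 methylated of 10 reads at each once the scaling was undone. Line 45 ran from 3.03% to 20% on 65 to 68 reads, and ICSI-F1 line 11 from 7.69% to 30.8% on 25 to 26 reads. In line 44 the 5 cytosines had 53.2%, 46.8%, 55.7%, 46.8% and 36.8%, the highest of its group at each. Their differences between the groups were −10.8, −5.72, −12.1, −15.3 and −4.96 points.
The 6 minus-strand cytosines of that fragment, 88112332, 88112356, 88112364, 88112375, 88112400 and 88112435, had control-F1 means of 43.0%, 42.9%, 37.1%, 39.7%, 32.8% and 42.7%. Their ICSI-F1 means were 32.9%, 36.0%, 36.2%, 34.3%, 24.3% and 30.5%. All were lower in ICSI-F1, by less than the SD between lines of at least one group. On the farthest fragment, 88112434 had 52.3% to 77.8% and 54.5% to 84.6%, and 88112494 had 23.5% to 70.6% and 43.2% to 63.6%, and these were the cytosines of Gm11116 with a difference above zero, 3.23 and 7.55 points.

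In Gm15889, 6 of the 7 cytosines lay on a 92-bp MspI fragment. Its mean was 20.6%, 38.3%, 25.3% and 36.5% in the control-F1 lines and 3.14%, 11.3%, 14.8% and 10.9% in the ICSI-F1 lines, without overlap. The means of 30.2% ± 8.59 and 10.0% ± 4.91 (SD, n = 4 each) differed by −20.2 points. All 3 lowered cytosines of Gm15889 were on the minus strand of this fragment. The strongest was 94377818, in the CCGG at the end that faces the gene, 54 bp from the start. It had 37.4%, 82.6%, 46.4% and 56.2% in control-F1 lines 29, 37, 44 and 45 and 8.49%, 12.7%, 18.7% and 22.1% in ICSI-F1 lines 11, 17, 20 and 21. The levels did not overlap, but with 24 to 104 reads behind each the Wilson interval of the lowest control-F1 line, 26.7% to 49.7%, overlapped that of the highest ICSI-F1 line, 15.2% to 31.0%. The difference was −40.1 points, with −49.4 in set 1 and −30.9 in set 2.
At 94377814 the control-F1 lines had 22.0%, 57.8%, 26.5% and 28.9% and the ICSI-F1 lines 0%, 15.9%, 14.5% and 9.26%, without overlap. The 0 of line 11 rests on 68 reads, which allows a level of up to 4.41% if the reads are independent. Line 37 was far above the other control-F1 lines. The third, 94377748, had 18.7%, 33.3%, 33.3% and 41.3% against 5.56%, 22.2%, 8.11% and 9.26%, and overlapped through lines 29 and 17.
The plus-strand cytosines of the fragment were lower in ICSI-F1 lines by less. At 94377747 the levels were 19.0%, 31.9%, 17.4% and 35.9% and 1.60%, 6.49%, 13.6% and 4.31%, which did not overlap although the difference missed the rule. At 94377813 they were 14.3%, 14.7%, 19.0% and 31.6% and 1.61%, 3.75%, 14.8% and 8.41%, and at 94377725, the far end of the fragment, 12.5%, 9.59%, 9.20% and 25.3% and 1.60%, 6.49%, 19.0% and 12%. These 2 overlapped, and 94377725 had the smallest difference of the fragment, −4.40 points. The seventh cytosine, 94377817, was at 92.3% to 100% in the control-F1 and 95.2% to 100% in the ICSI-F1 lines, 1 bp from the minus-strand cytosine with the largest difference.

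The cytosines near 100% share a feature that the choice of genes did not use. Those at 166130119 in Gpa33 and 94377817 in Gm15889 both lie in a CCGG, on the strand of a long MspI fragment (1204 and 1227 bp) that adjoins a short one (106 and 92 bp). The table holds 441 cytosines in CCGG whose own fragment is over 1000 bp while the adjoining one is under 300 bp. Their median level was 96.7%, and 436 of them (98.9%) were at 90% or more, including 133 of the 137 within CpG islands. In the mirrored case, a cytosine of a short fragment that adjoins a long one, the 3154 sites had a median of 5.29%. Where both fragments were under 300 bp, the 25734 sites had a median of 21.7%, and the 18920 of them in islands 21.3%. The lowered Gpa33 cytosine at 166130013 is of this last kind, as are those of Gm11116 at 88112299, 88112326, 88112434 and 88112435. What sets the level at these ends was not tested. Without the 2 cytosines near 100% the difference of the promoter mean was −30.5 points for Gpa33 and −20.2 points for Gm15889, an alternative chosen after the values were seen.

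Both strands of a CpG are normally methylated to a like degree, and the table allowed this to be looked at. Outside CCGG, CpGs with both cytosines measured and a mean level of 20% to 80% numbered 495 and had a median gap between strands of 3.77 points. Gm11116 had 8 such CpGs outside CCGG with both cytosines measured, and the minus strand was higher at each of them. The gap was 6.32 points at the smallest, where 27.3% of the 495 had one as large, and 12.5 to 20.3 points at the other 7, where 2.22% to 8.28% did. Averaged over the 8 CpGs, the minus strand exceeded the plus strand by 22.2, 23.3 and 18.2 points in control-F1 lines 29, 37 and 45 and by 19.5, 9.33, 36.1 and 1.67 points in ICSI-F1 lines 11, 17, 20 and 21. Only line 44 had the reverse, at −5.43 points. The gap was thus present in 7 of 8 lines from both groups and label sets, with line 20 highest, and its relation to the repeat content of the window was not tested.
The strands also gave different group differences. Over the 11 plus-strand cytosines of Gm11116 the control-F1 lines had 26.4% to 59.8% and the ICSI-F1 lines 18.9% to 25.8%, without overlap, and the difference was −15.7 points. Over the 12 minus-strand cytosines the ranges were 35.3% to 50.2% and 22.7% to 49.0%, with a difference of −10.2 points and overlap. In Gm15889 the difference was −8.86 points over 4 plus-strand and −28.1 points over 3 minus-strand cytosines, and the plus strand there includes the cytosine near 100%. At the 2 CpGs of Gm15889 outside CCGG, the minus strand was higher by 5.21 and 8.35 points, and at the one of Gpa33 by 8.40 points.

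**Figure D3:**
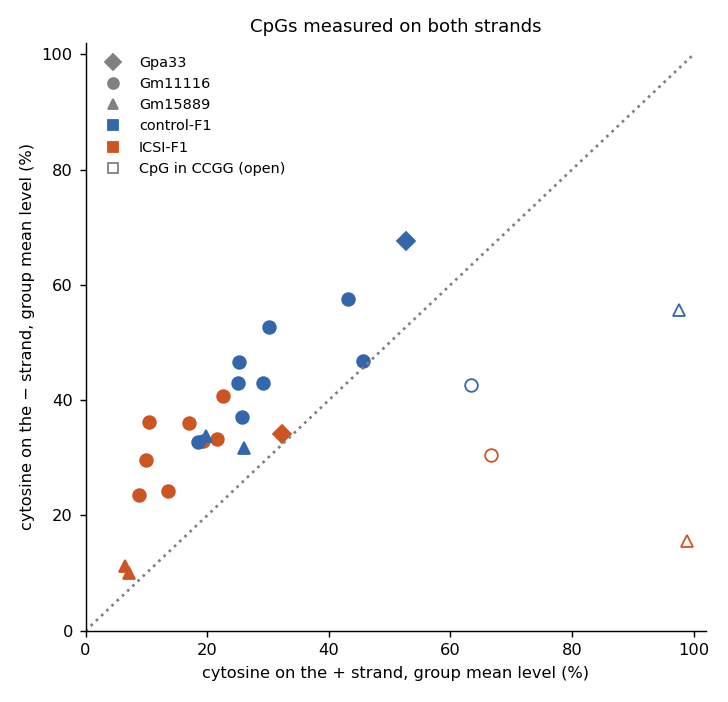
Group mean level (%) of the minus-strand cytosine (vertical axis) against the plus-strand cytosine (horizontal axis) of each CpG measured on both strands, in control-F1 (blue) and ICSI-F1 (orange) lines, with diamonds for Gpa33, circles for Gm11116, triangles for Gm15889 and open symbols for CpGs in CCGG. The filled points lie above the dotted line of equal levels, and the open triangles, near 100% on the plus strand, are the CCGG of Gm15889 at 54 to 55 bp from the gene start.

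The label sets offered a contrast that the choice of genes had not used. Set 2 minus set 1 was −5.33 points for Gpa33 (56.6% ± 23.6 in set 1 and 51.3% ± 14.0 in set 2, SD, n = 4), 3.35 points for Gm11116 (32.8% ± 7.86 and 36.1% ± 13.2) and 3.56 points for Gm15889 (29.5% ± 12.6 and 33.0% ± 9.87). Permuting the lines between the sets (exact permutation test, two-sided) gave p-values of 0.686, 0.714 and 0.657, and 0.783, 0.803 and 0.758 after Benjamini-Hochberg adjustment over the 9224 promoters. No gene passed the test, in which the spread of the lines includes the difference between the groups, and the sign turned without line 29, 37 or 21 for Gpa33, 44 or 17 for Gm11116, and 45 or 11 for Gm15889. The pooled value of Gpa33 joins unlike parts, since set 2 minus set 1 was −21.0 points in the control-F1 lines (76.7% and 55.7%) and 10.4 points in the ICSI-F1 lines (36.4% and 46.8%). It was 4.01 and 2.68 points in these groups for Gm11116, and 1.95 and 5.17 points for Gm15889. With 70 arrangements the smallest p is 0.0286. At p under 0.05 without adjustment 2573 promoters (27.9%) differed, 2559 of them higher in set 2, and after adjustment 0 of 9224 (0%). The smallest adjusted p of this permutation test was 0.102. A p that cannot fall below 0.0286 passes the adjustment only if most promoters reach it, so the 0% does not show that the sets were alike. The median promoter was 2.12 points higher in set 2.
Both sets of lines can also be compared for the difference between groups. It was below zero in both sets at 28 of the 35 cytosines and at all 10 lowered ones. The genes were picked on this difference in the same lines, and the rule bears on lines of both sets. Agreement in sign between the sets is therefore a description and lends no support. The share over all sites of the table is not given here. Gpa33 differences were larger in set 1, where they ranged from −62.5 to −1.79 points, than in set 2, with −19.9 to 0 points. By gene, the difference was below zero in both sets at 4 of the 5 Gpa33, 18 of the 23 Gm11116 and 6 of the 7 Gm15889 cytosines.

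**Figure D4:**
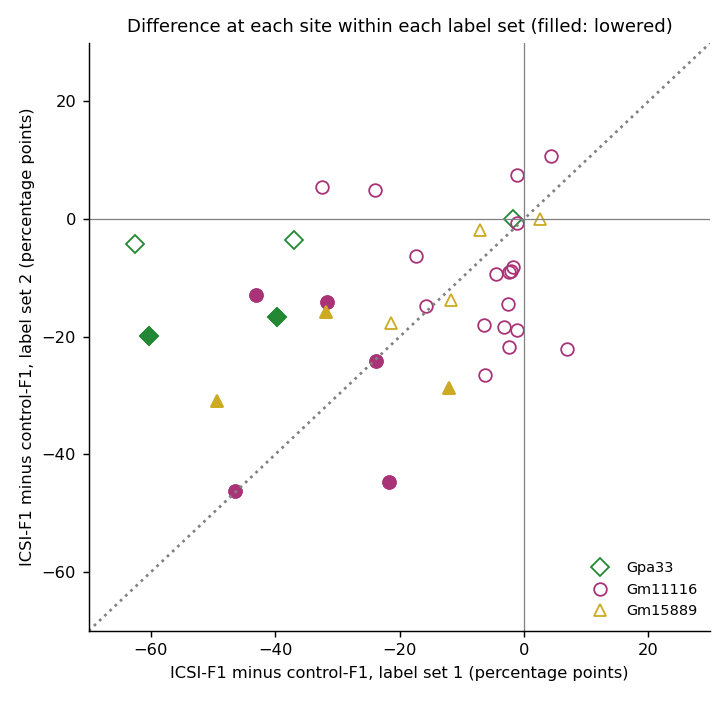
Difference between ICSI-F1 and control-F1 means (percentage points) at each of the 35 cytosines within label set 1 (horizontal axis) and label set 2 (vertical axis), 2 lines against 2 in each, with green diamonds for Gpa33, purple circles for Gm11116, yellow triangles for Gm15889, filled where lowered. The 10 lowered cytosines lie in the lower left of the plot, and the 4 Gpa33 cytosines below 100% lie above the dotted line of equal differences.

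The nearest promoters of the table on either side did not hold a cytosine past the rule in either direction. Beside Gpa33 these were Creg1, which encodes a secreted lysosomal glycoprotein, with 47.6% ± 4.00 and 52.6% ± 1.75 in the control-F1 and ICSI-F1 lines, and Mael, a gene of the germline piRNA pathway, with 3.42% ± 4.51 and 1.48% ± 0.787. Beside Gm11116 the nuclear RNA methylation reader gene Ythdc1 had 7.52% ± 2.08 and 8.63% ± 1.65, and the ribosome biogenesis gene Utp3 had 4.14% ± 1.38 and 4.88% ± 2.34. Beside Gm15889 the nuclear pore gene Nup93 had 4.98% ± 2.02 and 3.69% ± 2.46, and the copine gene Cpne2 had 3.19% ± 0.875 and 4.07% ± 1.23. The largest of these 6 differences was 4.97 points, at Creg1, and the closest of these promoters, that of Mael, was 109 kb from the cytosines of Gpa33. Over the table, 0.553% of promoters held a lowered cytosine and 3.39% a raised one. Except at Creg1, which had 2 cytosines, the control-F1 mean was 7.52% or less. That leaves little room for a fall of more than 20 points, so whether the differences are local cannot be told from these promoters.
Other genes of related roles were taken as lists. Gpa33 belongs to the CTX and junctional adhesion molecule family of cell surface proteins, of which 6 further genes (Vsig2, Vsig8, Clmp, Esam, Jam3 and Igsf5) had 57 cytosines in the table. None was lowered or raised by the rule, and the median difference was 0.0840 points, beside −0.161 points over all promoters. Over all sites, 0.0506% were lowered and 0.274% raised. Most of the 57 cytosines were in Clmp (12), Esam (20) and Jam3 (17), with control-F1 means of 2.70%, 5.78% and 2.47%. Such levels leave little room for a fall of more than 20 points, so the absence of lowered cytosines is no contrast with Gpa33. Of 14 intestinal epithelium genes, Cdx1 and Muc2 had 37 cytosines with 0 lowered or raised and a median difference of −1.50 points. Cdx1, an intestinal transcription factor gene, was at 7.80% ± 3.41 and 6.01% ± 1.56, and Muc2, the gene of the main intestinal mucin, at 97.8% ± 1.37 and 96.6% ± 2.14. Cdx1 held 33 of the 37 cytosines, and its level too leaves little room for a fall of more than 20 points.

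Line by line, the promoters with means most like those of each gene were found among 285 promoters with at least 5 cytosines and a range of at least 20 points over the 8 lines. These correlations are a description over 8 lines, and the lines carry the group difference on which the 3 genes were picked. The 3 promoters given for each gene are the highest of the 285, and over so few lines this choice favours high values. For Gpa33 they were Tlr6, a receptor gene for bacterial lipopeptides (r = 0.926), Rnf224 (r = 0.773) and Gm28442 (r = 0.759). For Gm11116 they were Ghdc (r = 0.936), Prrxl1, a homeobox gene of sensory neurons (r = 0.857), and Gm45871 (r = 0.852). For Gm15889 they were Rnf224 (r = 0.967), 1810044K17Rik (r = 0.899) and Zbp1, a sensor gene for nucleic acids (r = 0.862). Rnf224 appeared for both Gpa33 and Gm15889, and was at 60.2% ± 4.83 in the control-F1 lines and 40.9% ± 7.05 in the ICSI-F1 lines. Tlr6 had 77.3% ± 15.9 and 51.7% ± 19.5. Prrxl1 had 11.5% ± 13.2 and 2.40% ± 1.40, and Gm45871 had 12.6% ± 16.2 and 1.07% ± 1.41. In both, the SD of the control-F1 lines exceeded their mean, so a few lines can carry the correlation with Gm11116.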

How the data were processed

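RRBS libraries of 8 GS cell lines (4 control-F1, 4 ICSI-F1), 1 library per line, were analysed from one deposited table of promoter cytosines. Per the study's methods, the authors trimmed reads with Trim Galore 0.5.0 in its RRBS and non-directional mode, aligned them to mm10 with Bismark 0.20.0, and called cytosines with methylKit (version 1.16.0 in the submitters' processing notes). They scaled coverage between lines, removed sites under 10 reads or with extreme coverage, united the 8 lines with strands apart, and kept sites within 1000 bp upstream of Ensembl starts. The deposited coverage, methylated and unmethylated values are therefore scaled, rounded reads, treated as a score. The scaling factor of each line, 1 to 1.88, was read from the gaps between its coverage values. At least 99.7% of the sites of each line had a coverage that was a rounded multiple of it. No column of the table went unused, and it holds no comparisons by the authors.

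Levels were computed as methylated over methylated plus unmethylated values, with Python 3.11.15, numpy 2.4.6 and pandas 2.3.3, and group values were unweighted means of lines. Genes were located with GENCODE M21 and sequence with RefSeq GRCm38.p6. Wilson intervals (95%) and the limit for 0 methylated reads (3 reads) used reads with the scaling undone. The line numbers recur as numbers of single F1 mice in the study's supplement, and with 1 library per line a p-value measures the spread between these lines. Label sets were compared by the exact permutation test with Benjamini-Hochberg adjustment over all promoters, and the scripts were tested on simulated data. Members, gene lists and rules were chosen with earlier results of these data known. Genes named beside the members were the nearest promoters of the table on each side, the 3 promoters most correlated with each member, and list genes present in the table. Alternatives were coverage of at least 20 or 30, joined strands, read weighting, unscaled reads, other thresholds and exclusions, leaving out lines and single label sets.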

Additional observations from a re-analysis of the deposited data

Results flagged for a closer look

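In each group of 4 lines at each cytosine, and for the promoter means, the highest or lowest line was marked when its gap to the nearest line was unusually large against the range of the group (Dixon's criterion). This marked 4 of 76 groups, and chance marks about 5% of groups. The Gpa33 cytosine at 166130119 was marked for ICSI-F1 line 11, at 96.4% from 18 methylated of 19 reads, where the other ICSI-F1 lines had 100%. The Gm15889 cytosine at 94377817 was marked for ICSI-F1 line 17, at 95.2% from 15 of 16 reads, beside 100% in the others. Where the other lines all stand at 100%, a single unmethylated read is enough for this mark. In Gm11116, control-F1 line 44 was marked at 88112326 with 53.2%, above the other control-F1 lines at 20% to 23.5%. Control-F1 line 37 was marked at 88112435 with 25.8%, below the other control-F1 lines at 46.8% to 50.8%. Both Gm11116 cytosines lie on the 108-bp fragment, where the groups overlapped. At no cytosine or promoter did the difference between groups run one way in every line of one label set and the opposite way in every line of the other.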

How the results depend on the processing

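The difference of the promoter mean stayed below zero for all 3 genes under every alternative run. It lay between −40.3 and −8.87 points for Gpa33, −16.1 and −8.21 for Gm11116, and −20.2 and −15.0 for Gm15889. Only for Gpa33 did it move by more than the SD between lines, to −40.3 points in label set 1 alone and −8.87 in set 2 alone. Leaving out single lines gave −31.5 to −19.9 points for Gpa33, −16.1 to −8.21 for Gm11116 and −19.8 to −15.0 for Gm15889. The number of lowered cytosines in these promoters (10 of 35) was 17 and 4 at thresholds of 10 and 30 points, 5 when no overlap between the groups was allowed, and 6 to 12 without single lines. With strands joined, 6 of 22 CpGs were lowered. Over all sites the number lowered (103 of 203645) was 57 of the 159019 with at least 30 reads. It was 1057 and 30 at the other thresholds, 18 without overlap, and 429 and 538 within label sets 1 and 2. Without single lines it was 112 to 188, more than 1.5 times as many without 29, 37, 45, 20 or 21. The number without overlap (6) was 6 to 11 without single lines, but leaving out a line can only keep or raise it. These runs for cytosines without overlap were added after seeing the data, like those that left out the cytosines of long fragments. The difference between label sets turned direction without single lines, over −13.1 to 2.56 points for Gpa33, −2.87 to 7.35 for Gm11116 and −0.633 to 9.07 for Gm15889. Its adjusted p stayed at 0.398 or above in the exact permutation test. The cause of these changes was not tested. Coverage limits the Gpa33 cytosines most: 2 of 5 had at least 20 deposited reads in every line. No paired analysis was possible because the groups share no replicate numbers.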
